A study of Rattus norvegicus with 9 samples.

Results

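The genes described here encode AMPA receptors and the proteins that travel with them. They are the 4 pore-forming subunits Gria1, Gria2, Gria3 and Gria4, and the auxiliary subunits Cnih2, Cacng2, Cacng3 and Cacng8. Members were taken as all probe sets that name only one of these genes in the platform's gene table, and the median over its probe sets served as the value of a gene. All 8 genes were measured, by 13 of the 20826 probe sets that name a single gene, and they stand among 14217 genes in all. Gria1, Cnih2, Cacng3 and Cacng8 had 1 probe set each, Gria2, Gria3 and Cacng2 had 2, and Gria4 had 3.

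Expression was measured on 9 Affymetrix rat arrays, with RNA from dendrites that were severed from cultured hippocampal neurons of untreated Sprague-Dawley rats. Cultures were prepared at embryonic day 19 and kept for 14 days, and the labels give the cells as pyramidal neurons. Each array carried 1 pool of 100, 200 or 400 dendrites gathered from several cells, with 3 arrays per pool size that the labels call biological replicates. Whether replicates came from separate cultures is not given in the sources used here, so the p-values below measure the spread between these arrays, which may be technical. By the labels all groups shared strain, age and treatment, and they were told apart by the number of dendrites. According to the study, axons could not be distinguished from dendrites when neurites were collected, and the RNA went through several rounds of linear amplification. In pooled material of this kind, fewer dendrites of a type and less RNA per dendrite cannot be told apart.

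AMPA receptors are glutamate-gated ion channels built as tetramers, and they carry most fast excitatory transmission in the brain. In hippocampal pyramidal neurons the receptors are held at dendritic spines, where their number changes during synaptic plasticity. The TARPs, which are relatives of the calcium channel gamma subunits, and the cornichon proteins bind the tetramer, guide its traffic to the surface and slow its closing. The mRNAs of some subunits are known to be carried into dendrites and translated there.

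Values are log2 signals. Signal on an array depends on the affinity of each probe, so the percentiles given below are ranks of signal among all 14217 genes on the same array and not amounts of RNA, and levels were tested only between arrays for the same probe set or gene. Ranks of different genes are set side by side as a description, and they can follow the affinity of the probes. The arrays measured 11 markers of pyramidal neurons, of which 8 had a median percentile above 50, led by Neurod2 (99.9) and the calmodulin-binding protein gene Nrgn (99.4), while Tbr1 was at 2.44. Genes of other organs served as a check of low ranks. Their median percentile was 33.2 over 37 measured genes, and 12 of them were above 50. Ctrb1, a pancreatic protease gene, was at 97.7, and a high rank alone was therefore not read as presence of a transcript. Pairs of arrays correlated at 0.68 to 0.88 over all probe sets. Replicate 1 of the 400-dendrite pools stood apart, with a mean correlation of 0.75 against 0.78 to 0.84 for the other 8 arrays. Its hybridization control probe sets averaged 13.39, and those of replicate 1 of the 100-dendrite pools 13.89, compared with 11.67 to 12.45 on the other 7 arrays.

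Among the pore-forming subunits, the signals of Gria1 and Gria2 ranked above the 50th percentile on all 9 arrays, that of Gria4 on 4 and that of Gria3 on 0. This order follows the probe sets, which differed in rank within Gria2 and Gria3 as given below. Gria1, which encodes a subunit linked to the insertion of receptors during potentiation, had a median percentile of 89.1 and ranged between 80.2 and 96.4. Gria2, whose edited mRNA gives a subunit that makes the channel nearly impermeable to calcium, had a median percentile of 86.6 with a wider range of 64.5 to 97.2. Gria4 was at 48.3 (20.4 to 61.4) and Gria3 at 35.7 (15.4 to 46.7). In the adult hippocampus GluA1 and GluA2 are the main subunits of pyramidal cells, which is background and not a result of these arrays.

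The auxiliary subunits differed in median rank. Among the TARP genes, the range of Cacng8 overlapped those of Cacng2 and Cacng3, which did not overlap each other. Cnih2, a cornichon protein that binds AMPA receptors in hippocampal neurons, had a median percentile of 98.1, stayed between 91.6 and 99.2, and passed 95 on 6 of the 9 arrays. Cacng2, which encodes the TARP stargazin, had a median percentile of 62.8 (50.1 to 81.0) and was above 50 on all 9 arrays. Cacng8, the TARP gamma-8 gene known for its abundance in the hippocampus, was at 34.8, with a range of 19.2 to 75.3. Cacng3, which encodes the TARP gamma-3, was at 7.91 (3.61 to 40.2) and stayed under the 20th percentile on 7 of the 9 arrays. On replicate 1 of the 200-dendrite pools Cacng8 (75.3) ranked above Cacng2 (60.1).

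Of the 8 genes, 4 had a median percentile above 50, as did 49.9% of all genes, and 1, Cnih2, lay above the 95th percentile, against 4.5% of all genes. The signal of Cnih2 ranked above all 37 genes of other organs, Gria1 and Gria2 above 35 of them, Cacng2 above 28, Gria4 above 24, Gria3 and Cacng8 above 22 each, and Cacng3 above 2. These counts compare medians over arrays, and the 98.1 of Cnih2 was close to the 97.7 of Ctrb1. The rank depends on the probe set. Among all probe sets, those of Gria2 had median percentiles of 93.3 (1368401_at) and 73.1 (1387171_at), with lowest values of 67.7 and 35.3. Those of Gria3 were at 70.6 (1368691_at) and 6.71 (1376892_at), and those of Cacng2 at 84.8 (1375735_at) and 31.4 (1368759_at). With the probe set of highest mean taken for every gene, Gria2 was at 90.7, Gria3 at 61.7 and Cacng2 at 79.5 among genes. Gria1 was then at 82.4 and Gria4 at 39.0. The order of the subunits thus changed, with Gria2 above Gria1 and Gria3 above Gria4.

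**Figure D1:**
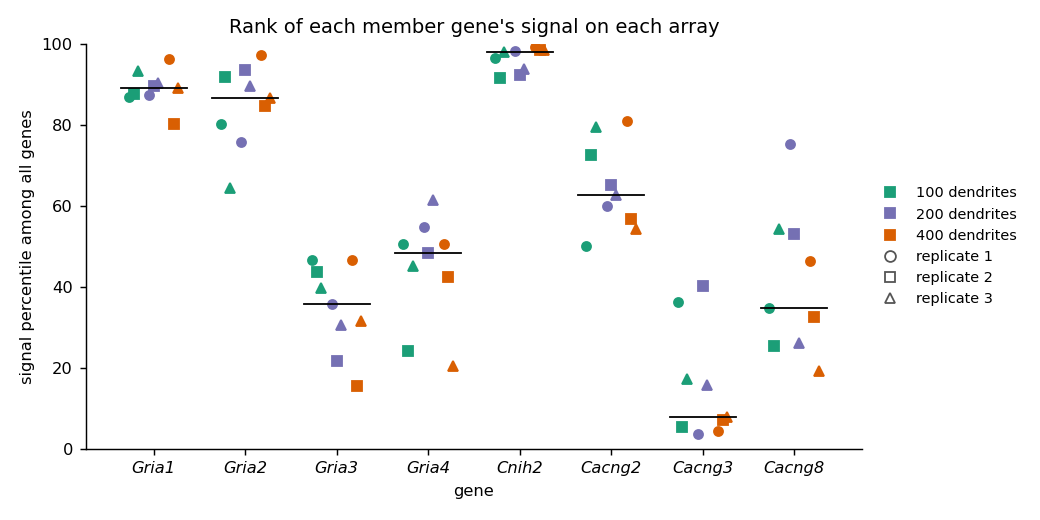
Signal percentile of each member gene among 14217 genes (vertical axis, 0 to 100) on each of the 9 arrays. Colours give the number of dendrites in the pool, symbols the replicate, and black lines the median over arrays. Cnih2 stays between 91.6 and 99.2, Gria1 and Gria2 are above 50 on all 9 arrays, and Cacng3 is under 20 on 7.

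Gria1 was measured by 1371013_at. Its signals were 9.21, 9.28 and 9.99 in the 100-dendrite pools, 9.25, 9.46 and 9.58 in the 200-dendrite pools and 10.66, 8.83 and 9.43 in the 400-dendrite pools, in the order of the replicates. Both the highest and the lowest of the 9 values were thus in the 400-dendrite pools, and the means of 9.49 ± 0.43, 9.43 ± 0.17 and 9.64 ± 0.93 (SD, n = 3 each) differed by less than this spread. Over all 9 arrays the SD of 0.53 was larger than that of 36.4% of all probe sets.

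Gria2 was measured by a pair of probe sets that behaved differently. With 1368401_at the signals were 10.64, 10.35 and 8.23 for 100 dendrites, 8.57, 10.42 and 10.99 for 200, and 13.76, 9.28 and 9.85 for 400. Replicate 1 of the 400-dendrite pools was 2.77 above the next highest array, and the SD over 9 arrays of 1.62 was larger than that of 99.6% of all probe sets. With 1387171_at the same array was at 8.16, below the mean of 8.43 ± 0.80 (SD, n = 9). The highest value of 1387171_at was 9.63 in replicate 2 of the 200-dendrite pools, and the lowest was 6.89 in replicate 1 of the 100-dendrite pools. The 3 pool sizes overlapped with both probe sets.

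Gria3 encodes a subunit that pairs with GluA2 in adult hippocampal neurons. Its probe set 1368691_at gave 8.15, 8.69 and 9.18 in the 100-dendrite pools, 9.08, 7.42 and 8.33 in the 200-dendrite pools and 9.29, 7.32 and 8.37 in the 400-dendrite pools. Both the lowest and the highest value were in the 400-dendrite pools, and the 3 pool sizes overlapped. Its other probe set, 1376892_at, averaged 5.61 ± 0.53 (SD, n = 9) and had the lower rank of the pair. The highest value of 1376892_at, 6.78, came from replicate 1 of the 100-dendrite pools.

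Gria4 encodes a subunit known mainly from early development and from interneurons. Its 3 probe sets averaged 7.39 ± 0.66 (1369384_at), 7.36 ± 0.62 (1383707_at) and 7.03 ± 0.81 (1396696_at, SD, n = 9 each). The array at the top was a different one in each case. Replicate 2 of the 100-dendrite pools was highest with 1369384_at, at 8.17, and lowest with 1396696_at, at 5.54. Replicate 3 of the 200-dendrite pools was highest with 1396696_at, at 7.98, and lowest with 1383707_at, at 6.10.

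The auxiliary subunit Cnih2, with the single probe set 1373747_at, was the only member with a probe set whose arrays did not overlap between pool sizes. It had signals of 10.67, 9.77 and 11.37 in the 100-dendrite pools, 11.51, 9.82 and 10.15 in the 200-dendrite pools and 11.89, 11.65 and 11.66 in the 400-dendrite pools. All 3 arrays of 400 dendrites were above all 6 arrays of the smaller pools, and they lay close together. The lowest of them, at 11.65, was near the 11.51 of replicate 1 of the 200-dendrite pools. Among all genes, 6.25% did not overlap in either direction between 400 and 100 dendrites, and 6.77% between 400 and 200. The share of genes set apart from both smaller pools was not counted. The SD was 0.80 with 100, 0.90 with 200 and 0.14 with 400 dendrites (n = 3 each). The 100- and 200-dendrite pools overlapped.

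For the TARP genes no such separation was seen. Cacng2 had a mean of 9.33 ± 0.67 with 1375735_at and of 6.94 ± 0.56 with 1368759_at (SD, n = 9 each), and replicate 3 of the 100-dendrite pools, at 10.77, was the highest with the first of these. Cacng3 (1370757_at) had signals of 7.08, 5.58 and 6.32 for 100 dendrites, 5.46, 7.25 and 6.24 for 200, and 5.56, 5.72 and 5.79 for 400. The 400-dendrite arrays lay close together, with an SD of 0.12 (n = 3), and overlapped with both smaller pools. Cacng8 (1388079_at) had signals of 7.03, 6.67 and 7.75 for 100 dendrites, 8.50, 7.69 and 6.71 for 200, and 7.47, 6.94 and 6.42 for 400, and the 3 pool sizes overlapped.

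**Figure D2:**
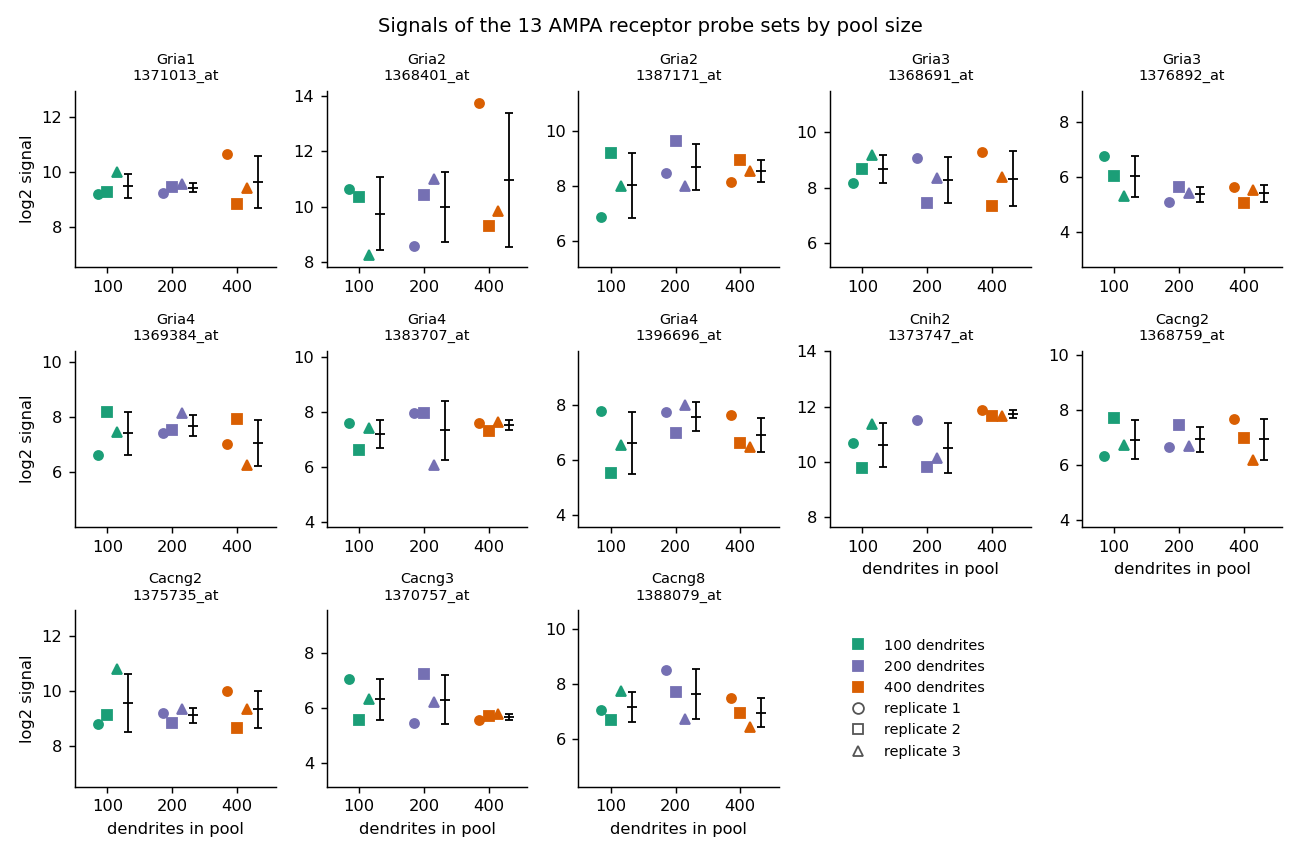
Log2 signal (vertical axis, of the same length in every panel) of each of the 13 probe sets by number of dendrites in the pool (horizontal axis). Coloured symbols are single arrays, and bars beside them show the mean and SD of the 3 arrays of a pool size. Cnih2 is above both smaller pools on all 3 arrays of 400 dendrites, and 1368401_at of Gria2 reaches 13.76 on 1 array of 400 dendrites.

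Whether the signals differed with the number of dendrites was tested with limma across all probe sets and across all genes, with two-sided p-values adjusted by the Benjamini-Hochberg method at a threshold of 0.05. None of the 13 probe sets and none of the 8 genes passed in any of the comparisons of 400 with 100, 200 with 100 or 400 with 200 dendrites, and none of the probe sets passed in the test over all 3 pool sizes. In each of these tests 0% of all probe sets or genes were called, so the members' count is that of the background. At an unadjusted p under 0.05, 1 member gene stood out between 400 and 100 dendrites (2.41% of all genes), 0 between 200 and 100 (3.03%) and 1 between 400 and 200 (2.3%). Both of these were Cnih2. In the limma test over all 3 pool sizes its unadjusted p was 0.0616 among genes and 0.0722 among probe sets.

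Between 400 and 100 dendrites, Cnih2 averaged 11.73 ± 0.14 in the 400-dendrite pools and 10.60 ± 0.80 in the 100-dendrite pools (SD, n = 3 each). The difference was 1.13 on the log2 scale, with a standard error of 0.51 and a 95% interval of 0.01 to 2.25 (limma, unadjusted p = 0.0486, adjusted p = 0.999). Fitted among probe sets, the same values gave an interval of -0.03 to 2.29 (unadjusted p = 0.0558), and with quantile normalization, the methods' centring and scaling or the upper 50% by signal the unadjusted p was 0.0515, 0.0524 and 0.0516. The difference was positive whichever array was left out, between 0.71 without replicate 2 and 1.51 without replicate 3 of the 100-dendrite pools, with unadjusted p between 0.0181 and 0.206. Of the 8 genes, Cnih2 alone had arrays that did not overlap between these pools, which was the case for 6.25% of all genes in either direction. Gria2 averaged 9.76 ± 1.04 in the 400-dendrite pools and 8.89 ± 0.84 in the 100-dendrite pools, a difference of 0.87 with a 95% interval of -0.45 to 2.19 (limma, adjusted p = 0.999). When the array on which 1368401_at read 13.76 was left out, the difference of Gria2 was 0.27. Of the 8 genes 3 were higher and 5 lower with 400 dendrites, with a median difference of -0.09, compared with 0.02 over all genes.

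Between 400 and 200 dendrites, Cnih2 averaged 11.73 ± 0.14 in the 400-dendrite pools and 10.49 ± 0.90 in the 200-dendrite pools. This difference of 1.24 had a 95% interval of 0.12 to 2.36 (limma, unadjusted p = 0.0332, adjusted p = 0.999). When single arrays were left out it lay between 0.90 and 1.75, with unadjusted p in limma between 0.0046 and 0.137. Again Cnih2 alone among the members did not overlap, compared with 6.77% of all genes. Gria4 averaged 7.13 ± 0.59 with 400 and 7.75 ± 0.23 with 200 dendrites, a difference of -0.62 with a 95% interval of -1.52 to 0.29 (limma, adjusted p = 0.999). Here 5 genes were higher and 3 lower with 400 dendrites (median difference 0.07, and 0.01 over all genes). Both comparisons of Cnih2 share the 400-dendrite arrays.

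Between 200 and 100 dendrites no member reached an unadjusted p of 0.05. Gria3 averaged 6.83 ± 0.28 with 200 and 7.35 ± 0.11 with 100 dendrites, a difference of -0.52 with a 95% interval of -1.38 to 0.34 (limma, adjusted p = 0.9999). Its gene values did not overlap between these pools, which was the case for 7.8% of all genes, but the values of each of its probe sets did. Gria4 averaged 7.75 ± 0.23 with 200 and 7.21 ± 0.52 with 100 dendrites, and this difference of 0.54 had a 95% interval of -0.37 to 1.45. With the probe set of highest mean it was 0.28. For the other members the gene values were between 0.22 lower and 0.48 higher with 200 dendrites.

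**Figure D3:**
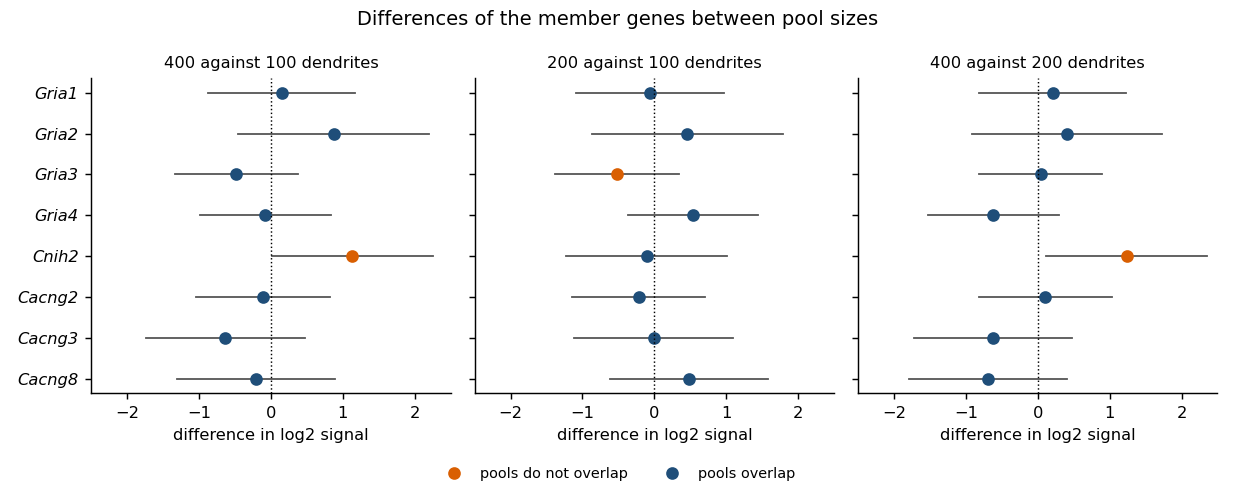
Differences in log2 signal of the 8 member genes (horizontal axis, larger minus smaller pool) in the 3 comparisons, with 95% intervals from limma, fitted across genes, as lines. Orange points mark genes whose arrays do not overlap between the pools compared. In this fit the intervals of Cnih2 lie above 0 in both comparisons with 400 dendrites, just so against 100 dendrites, where the fit among probe sets gave -0.03 to 2.29, and all others include 0.

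Signals of cell type markers were inspected beside these differences. Over the 12 endothelial, fibroblast and mural markers, the median level on an array was between 6.78 and 7.22 in the 100-dendrite pools, between 6.95 and 7.94 in the 200-dendrite pools and between 7.23 and 8.34 in the 400-dendrite pools. Of these 12 markers 8 were higher and 4 lower with 400 than with 100 dendrites, with a median difference of 0.29, and 1 of them, the collagen gene Col3a1, had an unadjusted p under 0.05 (difference 1.76, limma, adjusted p = 0.999). Between 400 and 200 dendrites Col3a1 was again the 1 marker of this list at an unadjusted p under 0.05 (difference 1.53, limma, adjusted p = 0.999). The part of the endothelial, fibroblast and mural markers in the higher Cnih2 signal of the 400-dendrite pools was not tested. Over the 11 interneuron markers the array medians were 7.41 to 7.85 with 100 dendrites, 6.56 to 6.75 with 200 and 7.27 to 7.67 with 400, so that the 200-dendrite pools lay below both others. Of these markers 1 was higher and 10 lower with 200 than with 100 dendrites (median difference -0.48). With 400 against 200 dendrites 8 were higher and 3 lower (0.53). None passed the threshold in limma. At an unadjusted p under 0.05, 3 of the 11 were lower with 200 than with 100 dendrites, and 2 higher with 400 than with 200. Over all genes, 3.03% and 2.3% reached this in either direction. Gad1, Gad2 and Slc32a1, which define inhibitory neurons, had median percentiles of 13.70, 15.56 and 11.56. Of the 11 interneuron markers, however, 6 were above the 50th percentile, with Calb2 (86.7) and Sst (64.6) the highest. In the same pools of 200 dendrites Gria3 had a lower mean than with 100 and Gria4 a higher mean than with 100 and with 400, and the part of these markers in that was not tested. Pyramidal neuron markers had array medians of 7.72 to 8.65 with 100 dendrites, 8.04 to 8.77 with 200 and 8.25 to 8.81 with 400, and these ranges overlapped. For the 9 astrocyte markers the medians were 7.45 to 8.14, 6.97 to 8.25 and 7.23 to 7.95 in the same order of pools. The array medians of the oligodendrocyte lineage and microglia markers also overlapped between the pool sizes. The difference between the 3′ and 5′ probe sets of the control gene Gapdh ran from 0.84 to 2.99 and was 2.24, 2.42 and 0.84 on the 400-dendrite arrays.

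Next, the probe sets that name the same gene were compared over the 9 arrays, which uses measurements assigned to 1 gene and made side by side on the same RNA. The 2 probe sets of Gria2 had a Pearson correlation of -0.13 (Spearman's rho -0.12), those of Gria3 of -0.05 (rho 0.08) and those of Cacng2 of 0.01 (rho 0.00). The 3 pairs of Gria4 were at -0.61, -0.20 and 0.11 (rho -0.64, -0.12 and 0.03). None of the 6 pairs reached 0.7, as 3.05% of the 9597 same-gene pairs on the array did. The median over those 9597 pairs was 0.01, and 49.5% of them were below 0. For the 4 members with more than 1 probe set, the array-to-array variation thus did not recur between probe sets. The same held for most same-gene pairs on the array. Gria1, Cnih2, Cacng3 and Cacng8, with 1 probe set each, could not be compared in this way. Whether a pair reads the same transcript ends was not examined, since no probe positions were used here.

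**Figure D4:**
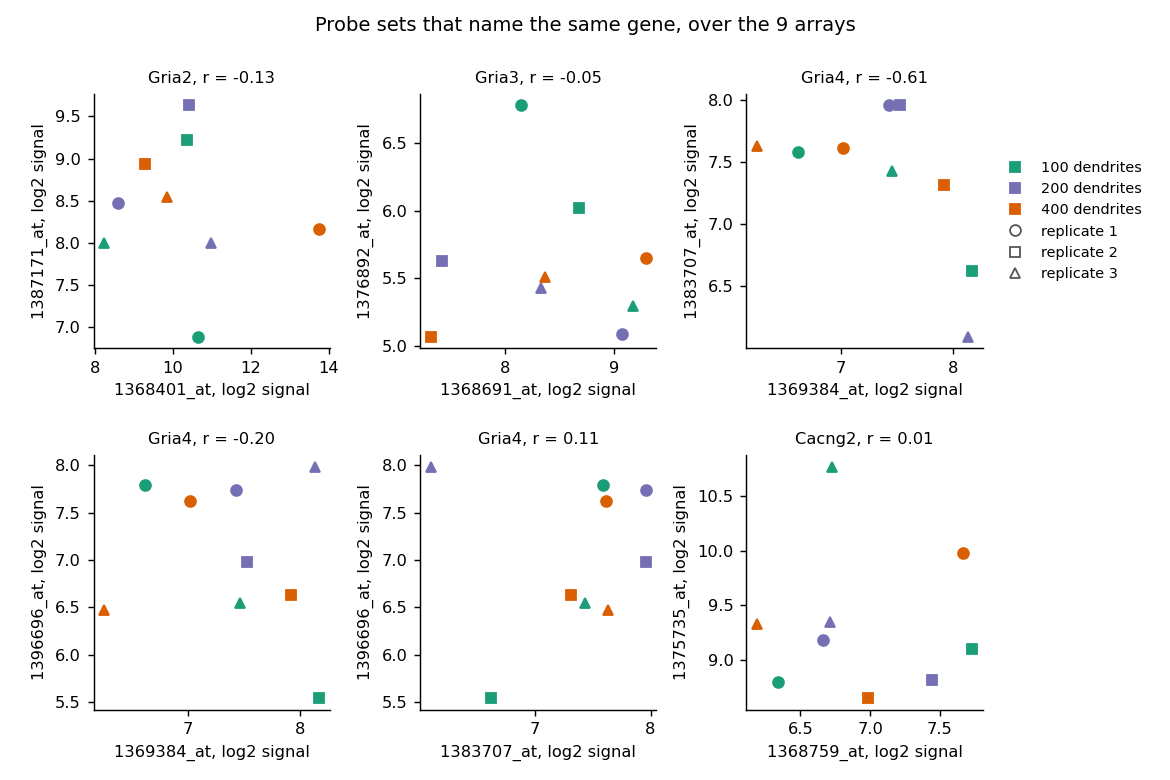
Log2 signals of the 6 pairs of probe sets that name the same member gene, plotted against each other over the 9 arrays. Colours give the pool size and symbols the replicate. The correlations run from -0.61 to 0.11, so a high array with one probe set was not generally high with the other.

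The member genes were also compared with each other over the arrays, as a description in which all points of a pair share their arrays and their amplification. Of 28 pairs, 1 reached a Pearson correlation of 0.7, against 2.65% of all pairs of genes. This pair was Gria1 and Cacng2, with r = 0.80 (rho 0.77, n = 9). It was 0.71 without the 2 arrays farthest from the median of Gria1, and 0.82 once the means of the pool sizes were taken out. Both genes were highest on replicate 1 of the 400-dendrite pools, and r was 0.67 when it was left out. The correlation of Gria1 was 0.77 with 1375735_at of Cacng2 and 0.33 with 1368759_at.

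The next pairs were Gria4 with Cacng8 at 0.54 and Gria1 with Gria3 at 0.53, which were -0.07 and -0.16 without their 2 farthest arrays. Gria1 and Gria2 had r = 0.47, which was -0.26 when that array was left out. The most negative pair over all 9 arrays was Cnih2 and Cacng3 at -0.51 (rho -0.45), which was -0.69 without its 2 farthest arrays and -0.29 with the pool means taken out. Gria2 and Cnih2 were at -0.17 over all 9 arrays, at -0.75 without their 2 farthest arrays, at -0.73 without that array of 400 dendrites on which Gria2 was highest and at -0.65 with the pool means taken out. Over all 28 pairs the median was 0.06, with 18 above 0 and 10 below, and 24 were smaller than 0.5 in size.

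**Figure D5:**
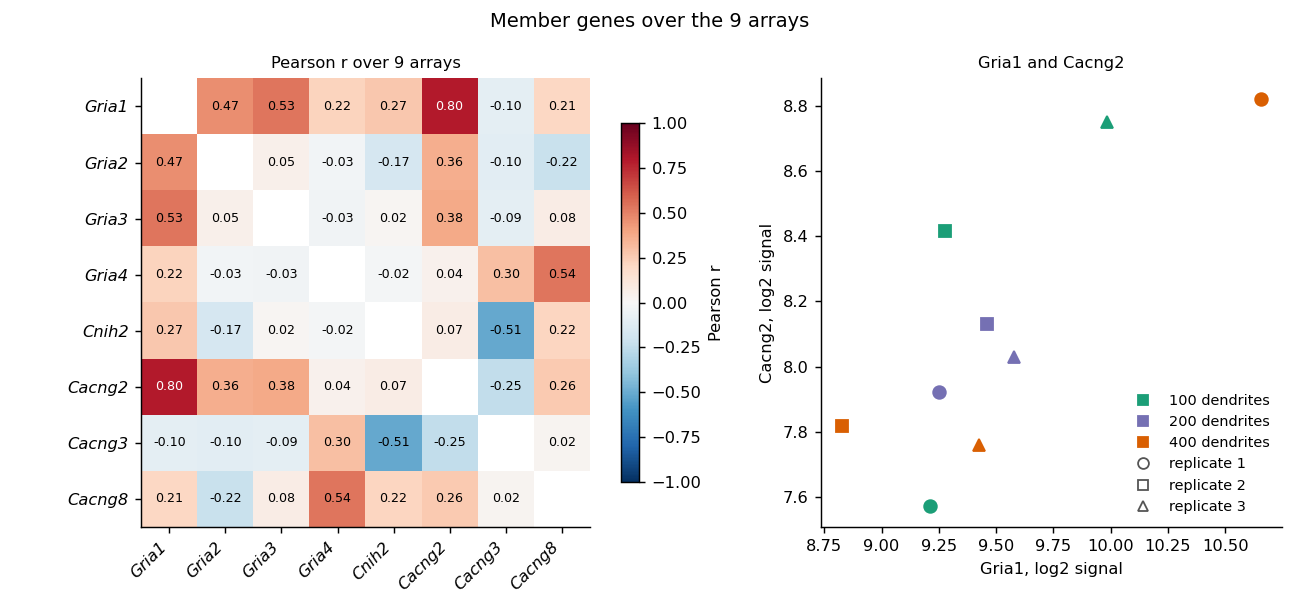
Pearson correlations of the 28 pairs of member genes over 9 arrays (left, colour scale from -1 to 1), and the log2 signals of Gria1 and Cacng2 on each array (right). Only Gria1 with Cacng2, at 0.80, is above 0.7, and its upper end is replicate 1 of the 400-dendrite pools.

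For each member the 2 genes outside the list whose signals followed it most closely were looked up, by Pearson correlation over the 9 arrays among 14209 genes. For Gria1 they were Atp6v1b1 and Hcst (0.98 and 0.97), for Gria2 Gramd2a and Tyr (0.95 and 0.93), for Gria3 Klhdc8b and Mustn1 (0.96 and 0.95), and for Gria4 Rabggta and Htr1f (0.93 each). For Cnih2 they were Tm2d2 and Snx5 (0.93 each), for Cacng2 Pnck and Zbtb7a (0.97 and 0.96), for Cacng3 Ccl3 and Itgav (0.91 and 0.90) and for Cacng8 Bpifb4 and Adtrp (0.96 and 0.93). These are the highest of 14209 values from 9 arrays each, and correlations between probe sets of 1 gene were near 0 as given above. The share of genes at or above 0.7 was 5.99% for Gria1 and 4.74% for Cacng2, and between 0.52% (Gria4) and 3.03% (Gria2) for the other 6.

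Other genes of the AMPA receptor pathway were then described. Of the 19 listed auxiliary and assembly genes outside the members 16 were measured, with a median percentile of 69.1. Highest were Nptx1 (97.6), a secreted pentraxin that gathers AMPA receptors at synapses, and Olfm1 (97.5), a secreted protein found in native receptor complexes, and the lowest was Shisa9 (19.5). Of 21 genes for anchoring and traffic 20 were measured, with a median percentile of 44.5. Dlg4, the gene of the scaffold protein PSD-95 at excitatory synapses, was at 98.1 and Ap2m1, a subunit of the endocytic clathrin adaptor, at 97.2, while Dlg2 was at 19.4.

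Of the other glutamate receptors, all 7 NMDA receptor subunits were measured. Their median percentile was 59.1, beside 55.6 for the 8 AMPA receptor genes, with values from Grin2d (43.9) to Grin2c (71.9) and the obligatory subunit Grin1 (75.3). The 6 measured kainate and delta receptor subunits had a median percentile of 23.2, with Grik3 at 92.3, Grik4 at 85.0 and Grik1 at 15.2. Cacng6 and Cacng1, calcium channel gamma subunits outside the AMPA receptor family, were at 84.7 and 36.1. Cacng1 is known from skeletal muscle.

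None of these 51 other genes passed the threshold in any comparison of pool sizes. At an unadjusted p under 0.05 there were 3 of 51 between 400 and 100 dendrites (2.41% of all genes), 2 between 200 and 100 (3.03%) and 1 between 400 and 200 (2.3%). The first 3 were higher with 400 dendrites. They were Arc, an immediate early gene whose protein removes AMPA receptors from the surface, with a difference of 1.20 ± 0.35 (SE), Olfm1 with 1.08 ± 0.41, and Ap2m1 with 0.99 ± 0.41 (limma, adjusted p = 0.999 each). Between 200 and 100 dendrites Myo5b, a motor protein of recycling endosomes, was at 1.31 ± 0.58 and Cacng1 at -0.84 ± 0.38 (adjusted p = 0.9999 each). Between 400 and 200 dendrites Cacng1 was at 0.97 ± 0.38. The median difference of the 20 anchoring and traffic genes was 0.13 between 400 and 100 dendrites (13 higher, 7 lower), 0.22 between 200 and 100 (16 higher, 4 lower) and -0.13 between 400 and 200 (8 higher, 12 lower). That of the NMDA receptor subunits was -0.02, -0.05 and 0.03 in the same order of comparisons.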

How the data were processed

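The authors deposited log2 signals made with RMA (version 2.0, from the submitters' processing notes) from Affymetrix rat expression arrays of amplified RNA. RMA corrects background, equalises the arrays and summarises the probes of a probe set. The median centring and percentile scaling of the study's methods are not in the deposited log2 values and were tried as an alternative. The mouse arrays were not used here, and no genome build was needed. Array medians were 7.46 to 7.53. Depth does not apply to arrays, and the number of arrays limits the precision.

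Of 31099 probe sets, 57 controls were set aside and 31042 were tested with no filter. Probe sets named 1 gene (20826), several (436) or none (9780) in the platform's gene table, and 20758 symbols were updated through Entrez gene IDs. Each gene was given the median over its own probe sets, leaving out those shared with another gene. Percentiles are ranks among genes on each array, and the text gives their median over arrays.

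Arrays were grouped by pool size from their titles. Pool sizes were compared with limma 3.58.1 (R 4.3.3) in 1 model of all 9 arrays, with pool size as a factor, empirical Bayes moderation and Benjamini-Hochberg adjustment over all probe sets or genes at 0.05. The fit was tested on simulated data. Correlations are descriptions with no test. As alternatives, the arrays were quantile normalised or centred and scaled as in the methods, only the upper 50% of probe sets by mean signal were kept, the variance was modelled with a trend and robustly, the methods' t-test or a replicate block was used, each array was left out, and genes were read from their brightest probe set. All 8 members are named, with differences for the 2 member genes of smallest p in each comparison, the 2 genes most like each member, and the 2 highest and the lowest gene of each related list, of which this report gives those that bear on the receptor. Other genes at an unadjusted p under 0.05, with Ctrb1 and Col3a1, were named after their values were seen. The members and lists were chosen with earlier results of these data known. No sequences are printed, since those of the probes were not used here.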

Additional observations from a re-analysis of the deposited data

Results flagged for a closer look

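Values of the 13 probe sets, and of the 4 member genes with more than 1 probe set, were examined for single arrays far from the other 8. Of these 17, 1 was set apart, and chance sets apart about 1 in 20 such groups. The probe set 1368401_at of Gria2 had a log2 signal of 13.76 on replicate 1 of the 400-dendrite pools. The next highest array was at 10.99 and the lowest at 8.23, so that the gap made up 0.502 of the whole range, which is above Dixon's critical value for 9 arrays. On the same array the other probe set of Gria2, 1387171_at, was at 8.16. This array had the lowest mean correlation with the others (0.75), and the part of this in the high signal was not tested.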

How the results depend on the processing

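The counts of calls between pool sizes were 0 in all 104 combinations of the 7 tests with an alternative, among them the replicate block (0) and the methods' t-test at both of its thresholds, with 133 to 1607 probe sets or genes at an unadjusted p under 0.05. The t-test was not run over 3 pool sizes, since it compares 2. Arrays of the same replicate number showed no clear likeness in signal. Deviations from the pool means correlated at -0.20 to 0.09 between arrays of the same number, and 1 of 9 arrays was closest to its own number. The hybridization controls, however, were highest on replicate 1 within each pool size, at 13.89, 12.45 and 13.39 with 100, 200 and 400 dendrites. Whether arrays of the same number were processed together was not tested. The 6 differences named in the text kept their direction in all 87 alternatives run, at adjusted p of 0.981 or more. Many of these alternatives could not change a direction, because they leave the estimate as it is and alter only its p-value. They were the variance model, the replicate block, the filter by mean signal and the omission of an array from the pool size not compared. For Cnih2, with 1 probe set, the choice of probe set could not change it either. For the differences of Cnih2 and Gria3, whose gene values did not overlap, leaving out an array could not change the direction. When 1 array was left out, those of Cnih2 and Gria2 between 400 and 100 dendrites and of Gria4 in both of its comparisons moved by over 1.5 times, with ranges of 0.71 to 1.51, 0.27 to 1.32, 0.24 to 0.73 (200 against 100) and -0.85 to -0.29 (400 against 200). With the probe set of highest mean the difference of Gria4 between 200 and 100 dendrites was 0.28 in place of 0.54. The number of member pairs at r of 0.7 or more was 2 in place of 1 with the pool means taken out, 2 with the probe set of highest mean, and 0 to 3 when single arrays were left out, the 0 when replicate 1 of 400 dendrites was absent and the 3 when replicate 3 of 100 dendrites was absent. Median percentiles moved by more than 1 SD over the 9 arrays for Gria1, Gria3 and Cacng2 with the probe set of highest mean. With 3 arrays a pool size, a median standard error of 0.45 on the log2 scale limits what could be detected per gene.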

Other observations

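Calcium channel gamma subunits known as AMPA receptor partners but outside the 8 members were also on the arrays. Cacng7 had a mean log2 signal of 9.28 ± 0.52, Cacng4 of 8.46 ± 0.78 and Cacng5 of 8.23 ± 0.51 (SD, n = 9 each). For Cacng4 the mean was 8.86 ± 0.31 in the 100-dendrite pools, 7.91 ± 0.66 in the 200-dendrite pools and 8.61 ± 1.08 in the 400-dendrite pools, and no comparison passed the threshold. Cpt1c and Frrs1l, which take part in receptor assembly in the endoplasmic reticulum, averaged 8.50 ± 0.60 and 8.18 ± 0.45. Adarb1, the enzyme that edits the Gria2 mRNA, averaged 7.39 ± 0.75, with 7.90 ± 1.08, 7.34 ± 0.21 and 6.93 ± 0.56 in the pools of 100, 200 and 400 dendrites.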
